A study of Mus musculus with 5 samples.

Results

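The BCL2 family sets whether a cell passes the mitochondrial checkpoint of apoptosis, and its 10 members followed here were chosen as a named list of genes out of the 17657 protein-coding genes of the deposited table. They comprise 6 BH3-only genes (Bbc3, Pmaip1, Bcl2l11, Bad, Bid and Bmf), 1 effector (Bax) and 3 prosurvival genes (Bcl2, Bcl2l1 and Mcl1). The RNA came from skin epidermal stem cells, progenitors that give rise to keratinocytes, of male C57BL/6 mice with 8 weeks given as their time label, grown in the keratinocyte medium KGM2. Libraries of cells from Angptl4 knockout mice (KO1 and KO2) were compared with libraries of cells from wild-type mice (WT1, WT2 and WT3), and all groups shared strain, sex, medium and cell type. The sources used here give neither the knockout allele nor the number of mice, and do not say that libraries came from different animals or cultures. P-values therefore reflect the spread between these libraries alone, which may be of technical origin.

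In the mitochondrial pathway of apoptosis, the effectors BAX and BAK permeabilise the outer mitochondrial membrane and let cytochrome c reach the cytosol, where it assembles the apoptosome and activates caspases. Prosurvival proteins such as BCL-2, BCL-XL and MCL-1 hold the effectors in check by binding their BH3 segment. BH3-only proteins occupy that groove or activate the effectors directly, and several of their genes are induced by p53, by FOXO factors or by stress of the endoplasmic reticulum. In epidermis, the turnover of keratinocytes and the fate of damaged progenitors depend in part on this balance.

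The libraries held 20283084 and 20507641 expected counts in the KO group and 20686246 to 20773407 in the WT group, so 1 CPM (counts scaled by library size) stood for 20.4 to 20.7 counts. The targeted gene Angptl4 was at 17 and 22 counts in KO1 and KO2, against 143, 119 and 85 counts in WT1, WT2 and WT3, so its level went with the labels. The 2 KO libraries stood apart from each other, with a biological coefficient of variation of 28.9% in KO and 5.22% in WT. The basal keratins Krt5 and Krt14 led the 11 listed keratinocyte markers, whose summed TPM (a level per transcript length, on a scale common to all libraries) was 45950 and 36110 in KO1 and KO2, against 35320 to 36500 in WT. Single keratinocyte markers moved with the groups, 5 of 11 higher and 2 lower. The differentiation keratin Krt1 was at 333 and 36.9 CPM in KO1 and KO2, against 7.36, 12.9 and 8.78 CPM in WT1, WT2 and WT3 (log2 change 4.26; edgeR adjusted p = 0.0177), and Krt10 rose by 2.32 (edgeR adjusted p = 0.0253). Basal markers went both ways. Itga6 and Trp63 changed by -0.91 and -0.73 (edgeR adjusted p = 0.00413 and 0.00518), while Itgb4 and Krt15 rose by 0.49 and 3.06 (edgeR adjusted p = 0.0171 and 0.0164). Krt15 was at most 0.485 CPM in a WT library, and Krt5, Krt14 and Col17a1 did not pass. The calls of Krt1 and Krt10 were lost without WT1 (edgeR adjusted p = 0.0807 and 0.0984), WT2 (0.0663 and 0.0877) or WT3 (0.0789 and 0.084). That of Itgb4 was also lost without WT1, WT2 or WT3, and that of Krt15 without WT1 or WT2.

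Of 14 tested fibroblast markers 7 were higher in KO, 0 lower and 7 did not pass, with a median log2 change of 2.56. Of all tested genes 20.4% were higher and 20.4% lower. The count of markers called higher was 3, 4 and 3 without WT1, WT2 and WT3. Those fits called 980, 1133 and 1116 of all genes higher, in place of 2638. Postn was at 10.5 and 4.29 TPM in KO1 and KO2, against 0.03, 0.13 and 0.03 TPM in WT1, WT2 and WT3, and Col6a1 at 4.05 and 1.61 TPM in KO1 and KO2, against 0.05, 0.07 and 0.07 TPM in WT1, WT2 and WT3. The summed TPM of the 16 listed was 425.5 and 210.7 in KO1 and KO2, against 245.9 to 252.9 in WT, but most of it was Fbln2 and Fbln1, which did not pass (log2 change 0.11 and 0.52; edgeR adjusted p = 0.795 and 0.164). The summed TPM of 7 immune markers in the table was 66.3 and 56.8 in KO1 and KO2, against 41.6 to 47.7 in WT, nearly all of it Cd68, a lysosomal gene of macrophages. Cd68 rose by 0.52 (edgeR adjusted p = 0.018), a call lost without WT1 (0.0837) and without WT3 (0.0791), while Adgre1 and Tyrobp had 0 counts in KO and at most 4 in a WT library. Csf1r did not pass (edgeR adjusted p = 0.468). Of 6 tested melanocyte markers Mitf was higher (log2 change 1.33; edgeR adjusted p = 0.00626) and 5, Mlana among them, did not pass. Of 2 tested endothelial markers Kdr was lower (log2 change -1.54; edgeR adjusted p = 0.0293) and Pecam1 did not pass. The call of Kdr was lost without WT1, WT2 or WT3 (edgeR adjusted p = 0.0998, 0.07 and 0.0979). The part of differentiation or of other cells in the results below was not tested, and in such bulk RNA fewer cells of a type cannot be told apart from less RNA per cell.

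Over the 10 members, 4 BH3-only genes rose in the KO cells and no effector or prosurvival gene among them passed the test. Bbc3, which encodes PUMA, and Bmf rose about as strongly, 4.92-fold and 5.24-fold, Pmaip1, which encodes NOXA, rose 2.55-fold, and Bad rose 1.40-fold. Bcl2l11, Bid, Bax, Bcl2, Bcl2l1 and Mcl1 did not pass, with estimates of at most 1.47-fold in either direction. All 10 members had enough counts to be tested. The 4 members called are 40% of the family, and 40.8% of all 12957 tested genes were called, 20.4% higher and 20.4% lower, so the share called is that of any tested genes. The 3 members that rose at least 2-fold stand beside 8.83% of tested genes that did. In 9 of 10 members no KO library overlapped the WT range in CPM, against 66.4% of tested genes. The median log2 change was 0.29 over the members and 0.02 over all tested genes. With a separate spread allowed for each group (limma-voom fitted per group) 4 members were called, against 30.6% of tested genes.

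**Figure D1:**
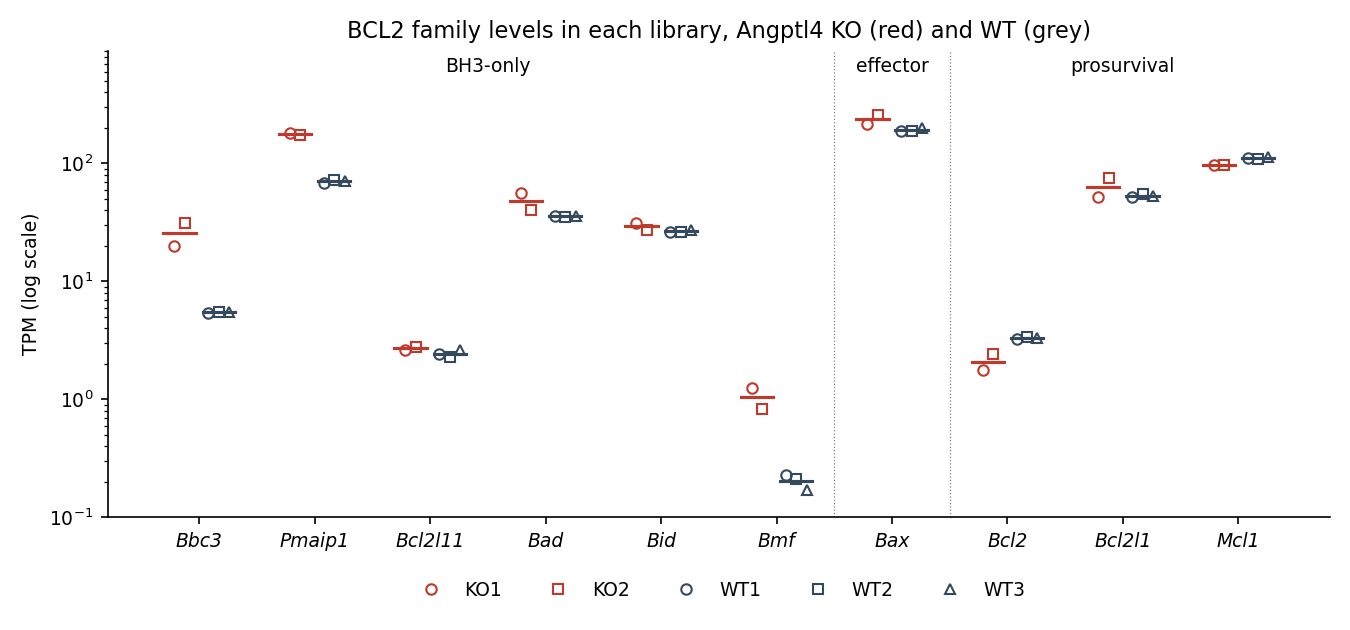
TPM of the 10 members on a log axis, in KO1 and KO2 (red) and in WT1, WT2 and WT3 (grey), with a bar at each group mean and the members ordered by role. The KO points of Bbc3, Pmaip1 and Bmf lie well above their WT points, while those of Bcl2 and Mcl1 lie below.

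In KO cells, Bax was the highest member at a mean of 237 TPM, followed by Pmaip1 at 178, Mcl1 at 97.0, Bcl2l1 at 63.2, Bad at 47.9, Bid at 29.2, Bbc3 at 25.6, Bcl2l11 at 2.71, Bcl2 at 2.08 and Bmf at 1.04. Bcl2l1 overlapped with Bad and Bid with Bbc3 between the KO libraries, and the other neighbours in that order did not overlap. In WT cells, Bax was also the highest at a mean of 193 TPM, followed by Mcl1 at 111, Pmaip1 at 70.8, Bcl2l1 at 53.3, Bad at 35.5, Bid at 26.7, Bbc3 at 5.48, Bcl2 at 3.31, Bcl2l11 at 2.44 and Bmf at 0.203, with no overlap between neighbours. Pmaip1 thus stood above Mcl1 in KO and below it in WT. Bcl2, for which the family is named, was among the 3 lowest members in both groups, and Mcl1 made up 64.4 and 55.8% of the summed prosurvival TPM in KO1 and KO2, against 64.9 to 66.9% in WT.

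Stretches before a transcript start are shown for Bbc3 and Bmf, the members with the largest changes, and for Bax. Among the 9 members searched, Bax was the other with a match to the p53 half-site. Each is the 250 bases before a RefSeq transcript start on build GRCm38.p6, 5′ to 3′ on the gene's strand. In the Bbc3 stretch (chr7:16309333-16309582, plus strand), capitals mark GC boxes (GGGCGG on either strand). In the stretches of Bmf (an internal start, chr2:118544588-118544837, minus strand) and Bax (chr7:45466899-45467148, minus strand), capitals mark a match to the p53 half-site.
Bbc3: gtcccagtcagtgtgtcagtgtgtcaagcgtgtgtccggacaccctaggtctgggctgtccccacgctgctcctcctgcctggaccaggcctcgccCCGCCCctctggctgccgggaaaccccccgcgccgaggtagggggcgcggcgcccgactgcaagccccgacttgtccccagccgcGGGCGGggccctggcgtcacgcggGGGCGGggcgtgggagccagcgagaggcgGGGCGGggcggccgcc
Bmf: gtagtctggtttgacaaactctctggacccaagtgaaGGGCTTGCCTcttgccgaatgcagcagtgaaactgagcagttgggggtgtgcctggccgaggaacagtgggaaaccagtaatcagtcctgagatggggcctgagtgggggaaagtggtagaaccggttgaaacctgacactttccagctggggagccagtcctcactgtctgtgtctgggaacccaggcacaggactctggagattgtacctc
Bax: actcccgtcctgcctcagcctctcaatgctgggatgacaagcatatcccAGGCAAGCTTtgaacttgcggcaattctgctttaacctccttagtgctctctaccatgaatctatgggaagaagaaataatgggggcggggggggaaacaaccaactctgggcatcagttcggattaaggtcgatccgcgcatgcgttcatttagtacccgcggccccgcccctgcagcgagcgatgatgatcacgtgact
The half-site match lay 203 bases before the internal Bmf start and 191 bases before the Bax start. Bmf and Bbc3 have other listed starts. The other Bmf stretches, which include that of the outermost start, held no half-site match, nor did any listed Bbc3 stretch. Of 17 such stretches listed for 9 members, 2 held a half-site match and 10 a GC box, in 2 and 7 genes, while of all 32851 listed stretches 7.13% held a half-site match and 32.7% a GC box. The TATA box (TATAAA on either strand) was in 0 of the 17, and in 12.4% of all. The CCAAT box (CCAAT on either strand) was in 6 of the 17, from Bad, Bbc3, Bcl2l11 and Bmf, and in 33.8% of all, a like share. Pmaip1 was left out of this search, so its stretches are not described here. A match describes letters, not a bound site.

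Bbc3 (chromosome 7, 16308398 to 16318334, plus strand; NCBI gene 170770) encodes PUMA, a BH3-only protein that binds all prosurvival members and is a direct p53 target. It was at 19.9 and 31.3 TPM in KO1 and KO2, against 5.44, 5.48 and 5.52 TPM in WT1, WT2 and WT3. Both KO libraries were far above the WT libraries, which lay almost on top of one another, and KO2 was higher than KO1. The group means were 25.6 ± 8.06 TPM in KO (SD, n = 2) and 5.48 ± 0.04 TPM in WT (SD, n = 3), and the log2 change was 2.30 ± 0.21 (SE; edgeR adjusted p = 0.00268). These values rest on 387 and 611 expected counts in KO and 95 to 110 in WT. The call held in each of the 17 settings run.

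Pmaip1 (chromosome 18, 66458604 to 66465558, plus strand; NCBI gene 58801) encodes NOXA, which binds MCL-1 in preference to BCL-2 and BCL-XL. It was at 182 and 174 TPM in KO1 and KO2, against 68.3, 72.8 and 71.2 TPM in WT1, WT2 and WT3. Here the KO libraries were close to each other, and the log2 change of 1.35 ± 0.07 had the smallest p of the family (SE; edgeR adjusted p = 0.000927). As the most abundant BH3-only transcript, Pmaip1 supplied 62.2 and 63.0% of the summed BH3-only TPM in KO1 and KO2, against 49.5 to 51.2% in WT. The call held in each of the 17 settings run. By the root mean square difference of log2 CPM over the 5 libraries, each gene centred on its WT mean, the tested genes with the profile nearest to Pmaip1 were Ccdc189 (0.0394), Ptprs (0.0416) and Tmem8b (0.048), with log2 changes of 1.38, 1.29 and 1.43.

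Bmf (chromosome 2, 118528757 to 118549686, minus strand; NCBI gene 171543) encodes a BH3-only protein that is tethered to the actin-bound myosin motor in attached cells and released when they detach. It was at 1.26 and 0.83 TPM in KO1 and KO2, against 0.23, 0.21 and 0.17 TPM in WT1, WT2 and WT3. The groups did not overlap, but Bmf remained the lowest member in both, with 61 and 41 counts in KO and 8 to 11 counts in WT. The log2 change was 2.39 ± 0.31 (SE; edgeR adjusted p = 0.00502), and on log2(TPM + 1), a scale that shrinks the changes of low genes, it was 0.76. It was called in each of the 14 settings in which it was tested.

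Bad (chromosome 19, 6941861 to 6951905, plus strand; NCBI gene 12015) encodes a BH3-only protein that growth factor kinases inactivate by phosphorylation, a control that RNA levels do not report. It was at 55.6 and 40.3 TPM in KO1 and KO2, against 35.5, 34.9 and 36.0 TPM in WT1, WT2 and WT3. KO1 was clearly above the WT libraries and KO2 only slightly. The log2 change was 0.49 ± 0.13 (SE; edgeR adjusted p = 0.0315). Leaving out WT1, WT2 or WT3 ended the call (edgeR adjusted p = 0.108, 0.114 and 0.101; range over its settings 0.000348 to 0.128), as did each limma fit on log2 TPM (adjusted p = 0.0703 to 0.101). The gene overlaps Gpr137 on the opposite strand, and the sources used here give no strand setting for the counting, so the source of its reads is uncertain.

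The other BH3-only members stayed within a small range. Bcl2l11, which encodes BIM, was at 2.62 and 2.80 TPM in KO1 and KO2, against 2.42, 2.30 and 2.60 TPM in WT1, WT2 and WT3, a log2 change of 0.20 ± 0.14 (SE; edgeR adjusted p = 0.301). Bid, which caspase-8 cleaves to link death receptors to mitochondria, was at 31.2 and 27.1 TPM in KO1 and KO2, against 26.2, 26.4 and 27.4 TPM in WT1, WT2 and WT3, a log2 change of 0.15 ± 0.10 (SE; edgeR adjusted p = 0.253). Neither passed, and for Bid KO2 lay inside the WT range in TPM. In GENCODE M21 the locus of Bid overlaps Bcl2l13 on the opposite strand.

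Bax (chromosome 7, 45461695 to 45466903, minus strand; NCBI gene 12028), the effector, was at 214 and 259 TPM in KO1 and KO2, against 189.6, 187 and 201 TPM in WT1, WT2 and WT3. Both KO libraries were above every WT library, KO2 by more. The log2 change was 0.32 ± 0.10 and just missed the threshold (SE; edgeR adjusted p = 0.0519). It passed without KO1 and without KO2, in fits where 1 KO library is assumed to vary like the WT libraries (edgeR adjusted p = 0.000577 and 0.0316; range over its settings 0.000577 to 0.173). In GENCODE M21 the locus overlaps the predicted gene Gm45808 on the same strand.

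Among prosurvival members, Bcl2 was the one with the largest difference. Bcl2 (chromosome 1, 106538176 to 106714290; NCBI gene 12043), which encodes the founding member of the family, was at 1.76 and 2.40 TPM in KO1 and KO2, against 3.26, 3.37 and 3.29 TPM in WT1, WT2 and WT3. Both KO libraries were below every WT library, KO1 by more. The log2 change was -0.56 ± 0.17, at the edge of the threshold without passing it (SE; edgeR adjusted p = 0.0502). It passed without KO1 and without KO2 (edgeR adjusted p = 0.0386 and 0.00154; range over its settings 0.00154 to 0.158). The deposited table places Bcl2 on the plus strand and GENCODE M21 on the minus strand, where an antisense transcript, D630008O14Rik, lies within its locus.

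Mcl1 (chromosome 3, 95656944 to 95663179, plus strand; NCBI gene 17210) encodes a short-lived prosurvival protein. It was at 96.7 and 97.4 TPM in KO1 and KO2, against 111, 109 and 113 TPM in WT1, WT2 and WT3. The KO libraries agreed closely and lay below the WT libraries, but the log2 change was only -0.17 ± 0.07 and did not pass (SE; edgeR adjusted p = 0.0957). It passed without KO1 and without KO2 (edgeR adjusted p = 0.021 and 0.0288; range over its settings 0.021 to 0.50).

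Bcl2l1 (chromosome 2, 152758732 to 152833803, minus strand; NCBI gene 12048) encodes BCL-XL and, by splicing, the shorter BCL-XS. It was at 51.7 and 74.7 TPM in KO1 and KO2, against 52.0, 55.5 and 52.5 TPM in WT1, WT2 and WT3. It was the one member whose groups overlapped in CPM: KO2 was above the WT libraries and KO1 was level with them. The log2 change was 0.27 ± 0.16 (SE; edgeR adjusted p = 0.221), with 0.49 without KO1 and -0.01 without KO2 (edgeR adjusted p = 0.000265 and 0.938; range over its settings 0.000265 to 0.938). Values per gene do not separate splice forms, which have opposite activities for Bcl2l1.

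**Figure D2:**
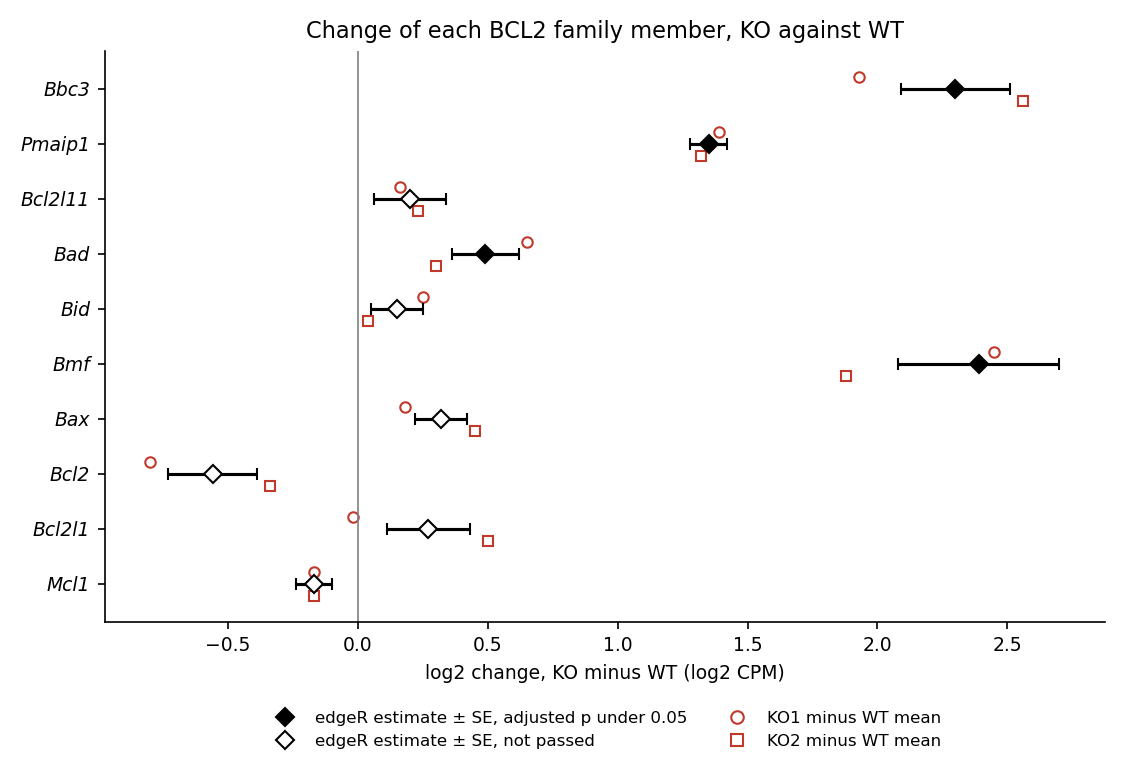
Log2 change of each member in KO against WT (black diamonds with SE bars, filled where the adjusted p was under 0.05), with each KO library against the WT mean (red circles KO1, red squares KO2). Pmaip1 and Mcl1 had nearly the same value in both KO libraries, while Bbc3, Bmf, Bcl2 and Bcl2l1 differed between them.

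The 2 KO libraries did not shift the family in the same way. KO2 was above KO1 by 0.64 on the log2 scale for Bbc3, by 0.52 for Bcl2l1, by 0.46 for Bcl2 and by 0.27 for Bax, and below it for Bmf (-0.57), Bad (-0.36) and Bid (-0.21). Pmaip1 (-0.07), Bcl2l11 (0.07) and Mcl1 (0.00) differed little between them. For those first 7 members the gap between the KO libraries was larger than the whole range of the 3 WT libraries, which was at most 0.38.

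Pro-apoptotic members were then set against prosurvival members within each library. The summed TPM of the 6 BH3-only genes was 292 and 276 in KO1 and KO2, against 138, 142 and 143 in WT1, WT2 and WT3. The summed TPM of the 3 prosurvival genes was 150.1 and 174 in KO1 and KO2, against 166, 168 and 169 in WT1, WT2 and WT3. Pro-apoptotic transcripts were thus more abundant in both KO libraries, while the prosurvival sum of KO1 lay below and that of KO2 above the WT libraries. The ratio of BH3-only plus Bax to prosurvival TPM was 3.38 and 3.07 in KO1 and KO2, against 1.97, 1.96 and 2.04 in WT1, WT2 and WT3. On the log2 scale it averaged 1.69 ± 0.097 in KO (SD, n = 2) and 0.994 ± 0.03 in WT (SD, n = 3), a difference of 0.69, given as a description with no test. Without Pmaip1, an alternative added after the data were seen, the difference was 0.43. Without Mcl1 it was 0.46.

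**Figure D3:**
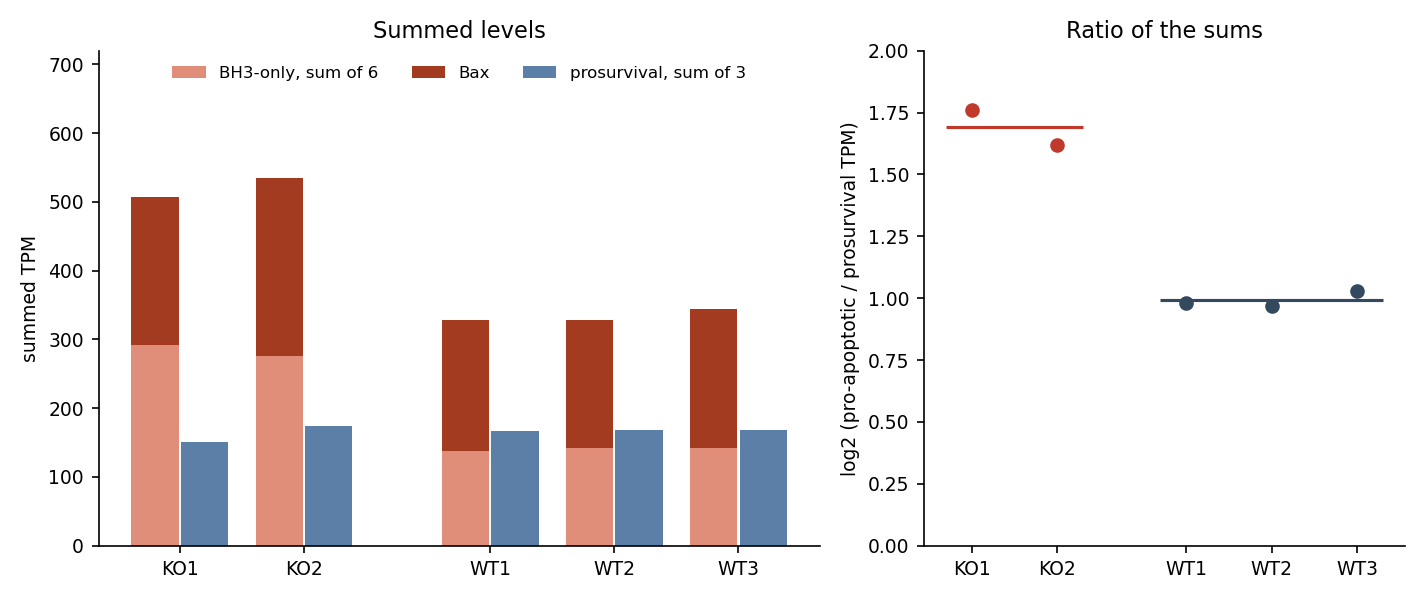
Left, summed TPM of the 6 BH3-only genes with Bax stacked on them, beside the summed TPM of the 3 prosurvival genes, in each library. Right, log2 ratio of the 2 sums per library with group means as lines: 1.76 and 1.62 in KO1 and KO2, 0.97 to 1.03 in WT.

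Each of the 7 pro-apoptotic members was also divided by each of the 3 prosurvival members within a library. Of these 21 ratios 17 were higher in both KO libraries than in every WT library, 0 were lower in both, and 4 overlapped. No such share was computed for ratios of other genes, and 66.4% of single tested genes did not overlap in CPM. The 4 that overlapped were those of Bcl2l11, Bad, Bid and Bax to Bcl2l1. The pair of NOXA and its preferred partner, Pmaip1 over Mcl1, had a log2 ratio of 0.91 and 0.84 in KO1 and KO2, against -0.70, -0.58 and -0.67 in WT1, WT2 and WT3, so Pmaip1 was above Mcl1 in KO and below it in WT. Bbc3 over Bcl2 had a log2 ratio of 3.50 and 3.71 in KO1 and KO2, against 0.74, 0.70 and 0.75 in WT1, WT2 and WT3. The 21 ratios share their members, so they are not independent.

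Another 15 family genes were in the deposited data, and of the 8 that could be tested 2 rose, 1 fell and 5 missed the threshold, so that 37.5% were called, beside 40.8% of all tested genes. Bnip3, which acts mainly in mitophagy, rose with a log2 change of 1.07 ± 0.12 (SE; edgeR adjusted p = 0.00376), and was at 62.0 and 76.9 TPM in KO1 and KO2, against 36.05, 33.4 and 31.5 TPM in WT1, WT2 and WT3. Bcl2l2, which encodes the prosurvival protein BCL-W, rose by 0.48 ± 0.07 (SE; edgeR adjusted p = 0.00601), and Bcl2l15 changed by -1.38 ± 0.16 (SE; edgeR adjusted p = 0.00404). Bcl2l12 did not pass (log2 change 0.29; edgeR adjusted p = 0.154). The second effector, Bak1, named here because of its level, was at 288 and 186 TPM in KO1 and KO2, against 236, 246 and 262 TPM in WT1, WT2 and WT3, and its groups overlapped. Its TPM was above that of Bax in each WT library. With Bak1, Bok, Bik, Hrk and Bcl2l2 added to their sides, the difference in the log2 ratio of the sums was 0.25 in place of 0.69. Most of it came from KO1, while KO2 lay close to the highest WT library. The BH3-only genes Bik and Hrk were near 0 counts in both groups.

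Downstream of the mitochondria, 4 of 13 tested genes of the apoptosome and the caspases fell, 0 rose and 9 missed the threshold, so that 30.8% were called, beside 40.8% of all tested genes. Without WT1, WT2 or WT3 0 rose and 1 fell. Those fits called 1957, 2282 and 2244 of all genes, in place of 5286. Cycs, which encodes cytochrome c, changed by -0.69 ± 0.10 (SE; edgeR adjusted p = 0.00575), with 136 and 115 CPM in KO1 and KO2, against 203, 198 and 208 CPM in WT1, WT2 and WT3. Apaf1, the scaffold of the apoptosome, changed by -0.30, Parp1, a caspase substrate, by -0.34 and the mitochondrial nuclease Endog by -0.48 (edgeR adjusted p = 0.0334, 0.0405 and 0.0461). Those 3 calls were lost without WT1 (edgeR adjusted p = 0.109, 0.117 and 0.0976), without WT2 (0.0895, 0.111 and 0.16) and without WT3 (0.121, 0.136 and 0.13), and that of Cycs held in all 5 fits without 1 library.

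Of 8 inhibitor of apoptosis genes and their antagonists, 3 fell, 1 rose and 4 missed the threshold. The share called was 50%, beside 40.8% of all tested genes. Xiap, a direct inhibitor of caspases, changed by -0.60 ± 0.10 (SE; edgeR adjusted p = 0.0101), with 35.9 and 43.4 CPM in KO1 and KO2, against 62.9, 57.8 and 59.9 CPM in WT1, WT2 and WT3. Xaf1, an antagonist of XIAP, rose by 1.33 (edgeR adjusted p = 0.0309). Birc5, which encodes the mitotic protein survivin, changed by -1.87 and Birc6 by -0.28 (edgeR adjusted p = 0.0169 and 0.0294). The calls of Xiap, Xaf1, Birc5 and Birc6 were lost without WT1 (edgeR adjusted p = 0.0566, 0.11, 0.0658 and 0.107) and without WT3 (0.0516, 0.0549, 0.0659 and 0.118), and those of Birc5 and Birc6 also without WT2 (0.0603 and 0.0961).

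In the death receptor group, 3 of 10 tested genes rose, 1 fell and the other 6 missed the threshold. The share called was 40%, beside 40.8% of all tested genes. The receptor Fas rose by 1.15 ± 0.27 (SE; edgeR adjusted p = 0.0222), with 24.9 and 13.3 CPM in KO1 and KO2, against 8.43, 8.90 and 8.44 CPM in WT1, WT2 and WT3. The tumour necrosis factor receptors Tnfrsf1a and Tnfrsf1b rose by 0.44 and 1.33, and the adaptor Fadd changed by -0.40 (edgeR adjusted p = 0.0097, 0.0323 and 0.0409). Without WT1 none of the 4 passed (edgeR adjusted p = 0.0872 for Fas, 0.0604 for Tnfrsf1a, 0.114 for Tnfrsf1b and 0.0981 for Fadd), nor without WT3 (0.0847, 0.0532, 0.109 and 0.137). Without WT2 those of Fas and Fadd were lost (0.0785 and 0.12), and without KO2 that of Tnfrsf1b (0.0562).

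On the list of the p53 pathway and stress transcription factors, 3 of 10 genes rose, 2 fell and 5 did not pass. Of the 3 that rose, Trp73 encodes a transcription factor, while Mdm4 and Cdkn1a do not. With 5 of these 10 genes called, the share was 50%, beside 40.8% of all tested genes. Trp53, which encodes p53, changed by -0.49 ± 0.07 (SE; edgeR adjusted p = 0.00639), at 214 and 213 CPM in KO1 and KO2, against 303, 294 and 305 CPM in WT1, WT2 and WT3. The related Trp63, the epidermal master regulator, changed by -0.73, Trp73 rose by 2.14 and the p53 inhibitor Mdm4 by 0.51 (edgeR adjusted p = 0.00518, 0.0135 and 0.0061). Cdkn1a, the cell cycle inhibitor that p53 induces and the third gene to rise, named after its values were seen, rose by 0.51 (edgeR adjusted p = 0.0181). Mdm2, on the same list, did not pass (log2 change -0.15; edgeR adjusted p = 0.261). For Trp73 and Cdkn1a the call ended without WT1 (edgeR adjusted p = 0.063 and 0.0959), WT2 (0.0626 and 0.0764) or WT3 (0.0609 and 0.0762). Bbc3 and Pmaip1, which are p53 targets, rose in cells whose Trp53 transcript was lower. The data hold no p53 protein level or activity, and the part of p53 was not tested.

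Among 12 genes for proteins that bind BCL2 family proteins or set their turnover, 2 rose, 2 fell and 8 missed the threshold. The share called was 33.3%, beside 40.8% of all tested genes. The channel genes Vdac2, whose product holds BAK at the outer mitochondrial membrane, and Vdac3 changed by -0.45 and -0.46, Fbxw7, a ubiquitin ligase subunit for MCL-1, rose by 0.35 and Tmbim6, which encodes BAX inhibitor 1, by 0.38 (edgeR adjusted p = 0.00916, 0.0074, 0.0331 and 0.0237). Without WT1 none of these 4 passed (edgeR adjusted p = 0.0587, 0.051, 0.131 and 0.106). Without WT3 those of Vdac2, Fbxw7 and Tmbim6 were lost (0.0534, 0.082 and 0.108), and without WT2 those of Fbxw7 and Tmbim6 (0.122 and 0.0795).

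Over the wider pathway, the calls did not lean to one side. Of the 113 tested genes that the deposited table places in the KEGG apoptosis pathway, 9 of them members of the family, 22 rose and 26 fell, 42.5% in all, and their median log2 change was 0.00. Of 72 tested genes on the lists of this section and of other forms of cell death, 15 rose and 15 fell, 41.7% in all, close to the 40.8% of all tested genes. That count of 30 was 11, 17 and 12 without WT1, WT2 and WT3. The KEGG counts were 10 higher and 7 lower without WT1, 13 and 8 without WT2, and 11 and 9 without WT3. In the same fits 1957, 2282 and 2244 of all genes were called, in place of 5286.

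**Figure D4:**
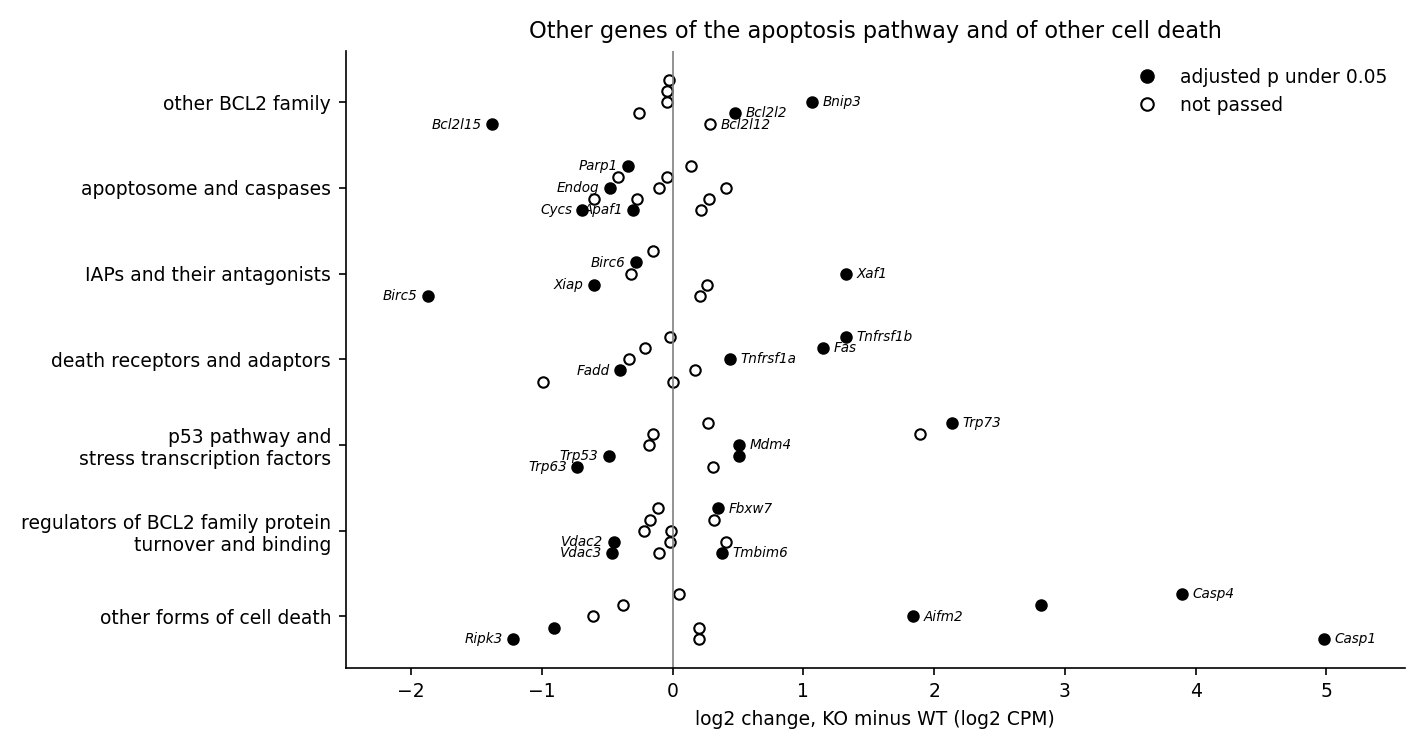
Log2 change in KO against WT of the 72 tested genes on 7 lists, filled where the edgeR adjusted p was under 0.05, with named genes labelled. The points fall on both sides of 0, and the highest changes, 4.98 and 3.90, are those of Casp1 and Casp4.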

How the data were processed

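RNA-seq of 2 KO and 3 WT libraries was deposited by the authors as 1 table of expected counts and TPM per gene, and each library's group came from its title. RSEM 1.3.1 and build GRCm38.p6 are named in the submitters' processing notes, and the values are expected counts per gene as deposited. RSEM divides shared reads between genes, and 32.1 to 34.0% of the counts per library were not whole (any decimal part other than 0, no tolerance). TPM, as the authors deposited it, is scaled by library and transcript length. The aligner and strand setting: not given in the sources used here. FPKM columns were not used.

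Rounded expected counts were tested with edgeR 4.0.16 under R 4.3.3 (filterByExpr, TMM factors of 0.988 to 1.02, quasi-likelihood test, two-sided, Benjamini-Hochberg over 12957 genes, threshold 0.05, no covariate), and the code was run on simulated counts. The simulation gave both groups the same spread, so it cannot show how the unequal spread of KO and WT affects the calls. Alternatives used DESeq2 1.42.0 and limma 3.58.1, among other settings. The members and lists were chosen with earlier results of these data known. Named were all members, up to 4 genes per list with the smallest p and, of each marker list, the highest by TPM. Bak1, Bik, Hrk, Cdkn1a, Mdm2, Gsdmc, Gsdmd, Acsl4, Adgre1, Tyrobp, Krt1, Krt10, Krt15, Itga6, Itgb4, Col17a1, Postn and Col6a1 were named after their values were seen. Promoter sequences are from RefSeq (GRCm38.p6), matched by symbol. Bcl2a1c and Fasl, on the lists, and Cd207, among markers, were not analysed here.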

Additional observations from a re-analysis of the deposited data

How the results depend on the processing

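Bbc3, Pmaip1 and Bmf rose under each setting in which they were tested. The stricter count filter and the TPM minimum left Bmf untested. The count of all genes called (5286) was 1598 and that of the listed pathway genes (30) was 9 with the replicate number as a block, and the block left 3 of 10 family members called, without Bad. The same-numbered libraries deviated together weakly (r = 0.00714 for KO1 and WT1, 0.0676 for KO2 and WT2, across genes). Taken from their group mean, the deviations of KO1 and KO2 mirror each other. These correlations therefore cannot decide whether same-numbered libraries were handled together. With 1 library left out, the counts were 1957 to 8068 for all genes, 3 to 8 for the family and 11 to 51 for the listed genes. DESeq2's size factors and DESeq2 itself called 6 members, adding Bax and Bcl2, limma-voom 5, adding Bcl2, and the TPM fits with a minimum 3 (Bbc3, Pmaip1 and, lower, Bcl2). Bad was lost in each TPM fit (adjusted p = 0.0703 to 0.101, limma). The difference in the log2 ratio of pro-apoptotic to prosurvival TPM (0.69) was 0.87 as a difference of mean log2(TPM + 1), 0.46 without Mcl1, 0.25 with the other family genes added, 0.43 without Pmaip1 and 0.62 to 0.76 with 1 library left out. The estimate of Bcl2l1 was 0.49 without KO1 and turned to -0.01 without KO2. With 2 KO libraries that differ from each other, the KO spread rests on 1 degree of freedom. Fits left with 1 KO library borrow their spread from WT.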

Other observations

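Genes of other forms of cell death, counted above only within the 72 listed genes, included the inflammatory caspase genes. Of 11 tested genes, 4 rose, 2 fell and 5 missed the threshold, so that 54.5% were called, beside 40.8% of all tested genes. The changes of Casp1 and Casp4 were the highest on the list. Casp1 was at 23.9 and 13.2 CPM in KO1 and KO2, against 0.633, 0.629 and 0.485 CPM in WT1, WT2 and WT3, a log2 change of 4.98 ± 0.33 (SE; edgeR adjusted p = 0.00165). Casp4, which senses cytosolic lipopolysaccharide, was at 10.1 and 10.9 CPM in KO1 and KO2, against 0.585, 1.02 and 0.485 CPM in WT1, WT2 and WT3, a log2 change of 3.90 ± 0.30 (SE; edgeR adjusted p = 0.00212). Both were near the limit of detection in WT and clearly present in both KO libraries. Gsdmd, the gasdermin they cleave, did not pass (log2 change 0.20; edgeR adjusted p = 0.574).

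Ripk3, the kinase of necroptosis, was at 34.5 and 40.8 CPM in KO1 and KO2, against 84.8, 88.4 and 90.0 CPM in WT1, WT2 and WT3, a log2 change of -1.22 ± 0.10 (SE; edgeR adjusted p = 0.00214). Aifm2, which encodes a suppressor of ferroptosis, rose by 1.84 ± 0.18 (SE; edgeR adjusted p = 0.00285). The calls of Casp1, Casp4, Ripk3 and Aifm2 held in each of the 17 settings run. Gsdmc rose by 2.82 and Acsl4, a lipid enzyme that favours ferroptosis, changed by -0.91 (edgeR adjusted p = 0.017 and 0.0144), and both calls were lost without WT1, WT2 or WT3 (0.0762, 0.0672 and 0.0727 for Gsdmc, 0.0645, 0.0564 and 0.0561 for Acsl4). Gsdmc has close copies in the mouse genome, so the source of its reads is uncertain.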
